A study of Solanum lycopersicum with 12 samples.

Results

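Flavonoids are phenolic compounds that plants build from phenylalanine by way of the general phenylpropanoid route. Chalcone synthase makes the first committed compound, chalcone isomerase closes its ring, and flavanone 3-hydroxylase turns the product into dihydroflavonols. From there the route forks: flavonol synthase leads to flavonols, and dihydroflavonol reductase with anthocyanidin synthase leads to anthocyanins. In roots, flavonols are known as modulators of auxin transport and root branching. The data below describe 10 genes of this route in tomato (Solanum lycopersicum) roots, out of 35768 gene models with a deposited value. They were chosen by identifier: chalcone synthases CHS1 (Solyc09g091510.3) and CHS2 (Solyc05g053550.3), a chalcone isomerase-like gene (CHI-like, Solyc05g010320.3), flavanone 3-hydroxylase F3H (Solyc02g083860.3), the B-ring hydroxylases F3'H (Solyc03g115220.3) and F3'5'H (Solyc11g066580.2), flavonol synthase FLS (Solyc11g013110.2), dihydroflavonol reductase DFR (Solyc02g085020.3), anthocyanidin synthase ANS (Solyc08g080040.3) and the regulator MYB12 (Solyc01g079620.3). All 10 were found in the table, which holds identifiers and no names, so these names rest on published tomato nomenclature. A RefSeq gene table (assembly SLM_r2.1) has 8 of the 10 names as symbols, and all 8 lie on the chromosome that the identifier gives.

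Roots came from plants 20 days after germination, wild type (WT) or slstop1 mutant, the latter altered in the tomato homologue of STOP1, a zinc finger factor of acid soil and aluminium (Al) tolerance in Arabidopsis. Both genotypes were treated with 0 or 60 µM Al at pH 4.7, so that the plants without Al were also at low pH. Each of the 4 groups had 3 libraries that the labels call biological replicates, 12 in all. The titles of the slstop1 libraries mark them as KO (knockout). Beyond this the labels do not give the kind of mutation. They also give neither the cultivar, nor the number of mutant lines, nor the length of the treatment.

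Levels are FPKM, fragments scaled to the size of the library and the length of the transcript, which can be compared between genes because length is divided out. The number of reads per library is unknown. Judged by how low values are spaced, depth varied between libraries by a factor of 1.45. The targeted gene SlSTOP1 (Solyc11g017140.2) read 56.0 to 88.6 FPKM in the 6 WT libraries and 27.7 to 39.8 FPKM in the 6 slstop1 libraries, without overlap. In WT without Al, replicate 3 was set off from the others, with the lowest mean Spearman correlation of all libraries (0.918). FER (Solyc06g051550.3), a regulator of iron uptake used here as a root marker, averaged 51.2 ± 7.97 FPKM in WT and 30.9 ± 5.50 in slstop1 without Al (SD, n = 3), 48.5 ± 18.3 in WT with Al, and 7.54 ± 0.394 in the mutant with Al. Of 3 Rubisco small subunit genes, used as shoot markers, Solyc02g063150.3 and Solyc02g085950.3 were at or below 1.19 FPKM throughout. The remaining one, Solyc03g034220.3, carried nearly the whole sum, which was 13.8 to 42.7 FPKM in WT without Al, 13.3 to 27.1 in WT with Al, 9.48 to 46.5 in slstop1 without Al and 56.3 to 76.9 in slstop1 with Al. The sum, in effect that of Solyc03g034220.3, was thus highest, and FER lowest, in the mutant with Al, where F3H and FLS were lowest too. Solyc02g063150.3 and Solyc02g085950.3 went the other way in slstop1. Their means fell with Al from 0.39 to 0.073 FPKM and from 0.49 to 0.077 FPKM, so the shoot markers did not move together. The part of these markers in the results for F3H and FLS was not tested. In whole roots, fewer cells of a type and less RNA per cell cannot be told apart.

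Among the chosen genes, the roots held transcripts of F3H, F3'H, FLS and ANS. They held almost none of the others, among them those for the start of the route and DFR of the anthocyanin branch. Other chalcone synthase models were not looked up, nor other isomerase models apart from a further chalcone isomerase-like one given below. The start of the route as a whole was therefore not measured. CHS1 and CHS2, the chalcone synthases chosen here, stayed under 1 FPKM throughout. CHS1 was listed at 0 in 8 of 12 libraries and reached at most 0.16 FPKM, and CHS2 was listed at 0 in 9 and reached at most 0.35. CHI-like was above 0 in 1 library, a WT root without Al, at 0.31 FPKM. F3'5'H, which adds the hydroxyl groups of delphinidin-type pigments, was listed at 0 in all 12. DFR, the entry to the anthocyanin branch, was above 0 only in slstop1 with Al, at 0.13, 0 and 0.17 FPKM. MYB12, known in tomato fruit as an activator of the early flavonoid genes, was listed at 0 in 7 libraries and reached at most 0.49 FPKM.

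These 6 genes stayed under the filter for testing, which asked for at least 1 FPKM in at least 3 libraries. An exact 0 in such a table can be a failed estimate, and a low transcript is not detectable at an unknown depth. With the filter removed, limma called none of the 5 that had any value above 0 in any comparison; the lowest adjusted p was 0.0553, for DFR with Al in slstop1. CHS1 read 0.05, 0.1 and 0.05 FPKM in WT without Al and was listed at 0 in all 6 slstop1 libraries. The groups without Al do not overlap for CHS1, and the limma adjusted p without the filter was 1. Relative depth without Al was 0.876 to 0.928 of the deepest library in WT and 0.69 to 0.772 in slstop1. In WT with Al, CHS1 was listed at 0 in replicate 2, the deepest library, and read 0.16 FPKM in replicate 1, at 0.807. The part of depth was not tested.

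**Figure D1:**
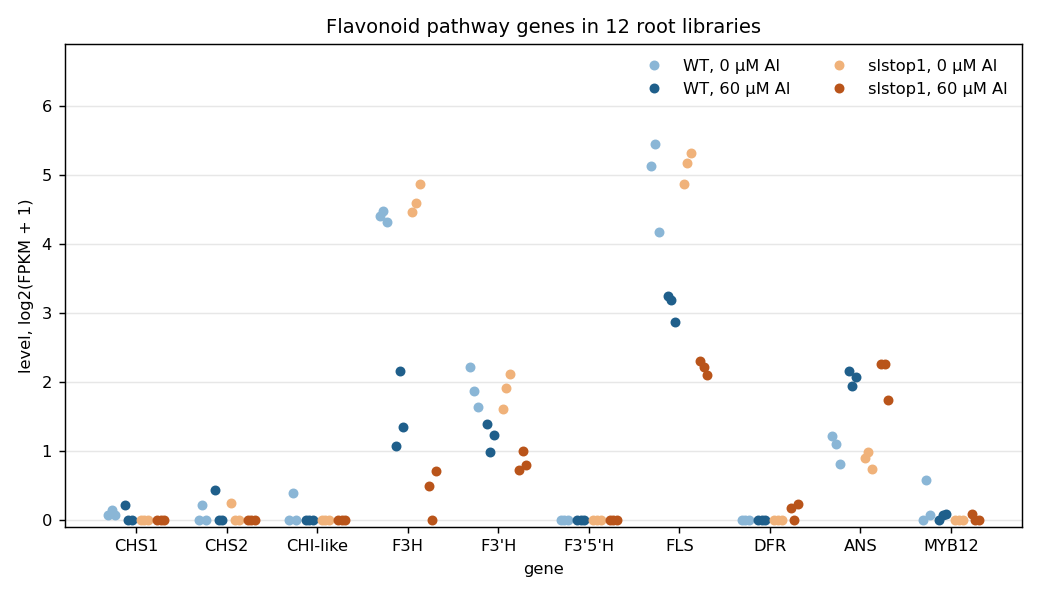
Level of each of the 10 flavonoid genes in each of the 12 libraries, as log2(FPKM + 1) on the vertical axis, with 1 point per library and colours for genotype and Al dose. CHS1, CHS2, CHI-like, F3'5'H, DFR and MYB12 lie at or near 0 in every group, while F3H and FLS are high without Al and low with Al.

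The other 4 genes, F3H, F3'H, FLS and ANS, passed the filter: F3H and F3'H reached 1 FPKM in 9 libraries each, FLS in all 12, and ANS in 8, among them all 6 with Al. No other gene model had values identical to theirs. ANS reached 1 FPKM in 2 libraries without Al, both WT, so it passed only because of its libraries with Al. The filter thus favoured a rise of ANS. With no filter its change with Al in WT kept its call (limma adjusted p = 0.0021). Without Al the order of levels was the same in both genotypes. FLS came first, at 31.4 ± 13.1 FPKM in WT and 34.1 ± 5.49 in slstop1 (SD, n = 3). F3H came second, at 20.2 ± 1.21 and 24.2 ± 3.70 FPKM, and the library values of FLS and F3H overlapped in both genotypes. F3'H, at 2.79 ± 0.776 and 2.73 ± 0.652 FPKM, and ANS, at 1.08 ± 0.291 and 0.833 ± 0.152 FPKM, followed without overlap with their neighbours. With Al this order changed: in WT it was FLS, ANS, F3H and F3'H, and in slstop1 FLS, ANS, F3'H and F3H. In WT with Al the neighbours ANS and F3H overlapped, as did F3H and F3'H, and in slstop1 with Al FLS and ANS overlapped.

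The first question the design poses is what Al does in WT roots. F3H, which acts before the fork and serves both branches, fell, and so did FLS of the flavonol branch. F3'H, which adds a hydroxyl group to the flavonoid B-ring, fell as well, whereas ANS of the anthocyanin branch rose. DFR, the entry to that branch, was listed at 0 in every WT library. F3H was at 20.3, 21.3 and 18.9 FPKM in WT without Al and at 1.11, 3.48 and 1.54 FPKM with Al. FLS was at 34.2, 42.9 and 17.1 FPKM without Al and at 8.45, 8.08 and 6.31 FPKM with Al. For both genes every library with Al lay below every library without, although FLS in replicate 3 without Al was about as low as F3H. The ratio of group means was 9.87 for F3H and 4.12 for FLS, higher without Al.

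F3'H was at 3.63, 2.64 and 2.1 FPKM in WT without Al and at 1.62, 0.98 and 1.35 FPKM with Al, again without overlap. ANS went the other way, from 1.33, 1.15 and 0.76 FPKM to 3.46, 2.83 and 3.19 FPKM. Its groups were likewise separate, and their means differed by a factor of 2.93.

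On the log2(FPKM + 1) scale, which understates changes of low genes, the change with Al in WT was -2.87 ± 0.276 for F3H (SE; limma adjusted p = 7.12e-06) and -1.83 ± 0.279 for FLS (adjusted p = 0.000187). It was -0.70 ± 0.209 for F3'H (limma adjusted p = 0.0131) and 1.01 ± 0.193 for ANS (adjusted p = 0.000923). So 4 of the 4 tested genes were called, 3 lower and 1 higher, the last being ANS, whose rise the filter favoured. Among all 15903 genes tested in this comparison 60.9% were called, 39% lower and 21.9% higher, so a call alone sets no gene apart. The sizes stand against a median change of -0.27 over all tested genes, which median-of-ratios scaling moved to -0.054. Under that scaling F3H changed by -2.64, FLS by -1.58, F3'H by -0.52 and ANS by 1.15, and all 4 kept their calls. The call of F3'H was lost without replicate 1 of WT without Al (-0.55, limma adjusted p = 0.0572). Without replicate 3 of that group FLS changed by -2.20 and F3H by -2.92.

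**Figure D2:**
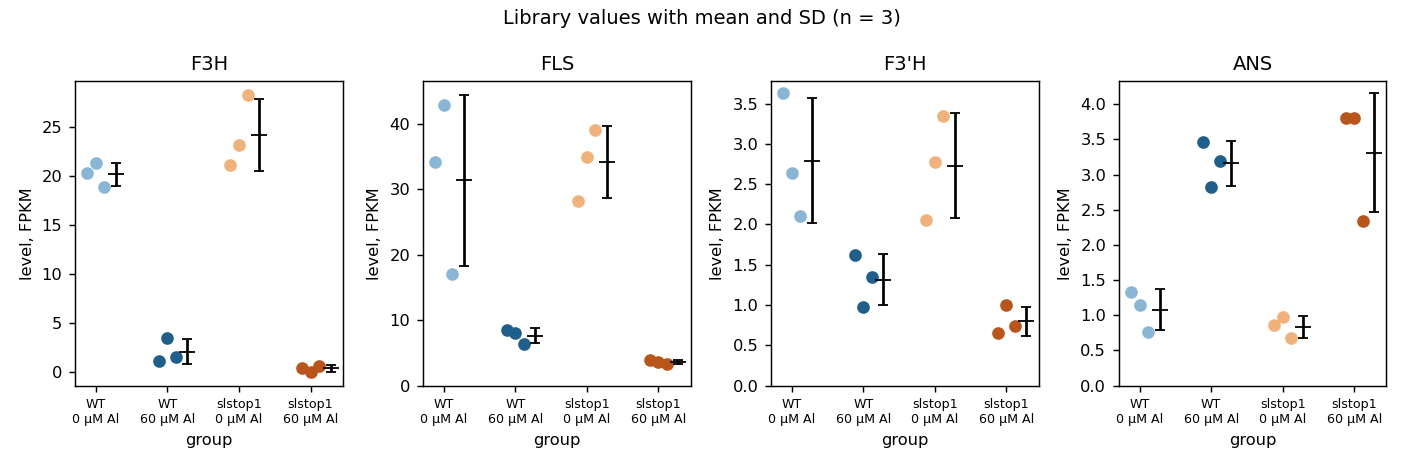
FPKM of F3H, FLS, F3'H and ANS in each library, 1 point per library, with the mean and SD of each group (n = 3) as a bar beside the points and a separate vertical scale for each gene. F3H falls from between 18.9 and 28.3 FPKM without Al to at most 3.48 FPKM with Al, and ANS rises from at most 1.33 to at least 2.34 FPKM.

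In slstop1 roots the same 3 genes fell and ANS rose. F3H was at 21.1, 23.2 and 28.3 FPKM without Al and at 0.41, 0 and 0.63 FPKM with Al. The library listed at 0, replicate 2, was also among the shallowest, at 0.695 of the deepest, and the part of depth was not tested. FLS was at 28.3, 35.0 and 39.1 FPKM without Al and at 3.96, 3.67 and 3.28 FPKM with Al, a ratio of means of 9.38. F3H thus ended under 1 FPKM in all 3 mutant libraries with Al, while FLS remained above 3 FPKM in each.

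F3'H was at 2.05, 2.78 and 3.35 FPKM in slstop1 without Al and at 0.65, 1 and 0.74 FPKM with Al. ANS was at 0.86, 0.97 and 0.67 FPKM without Al and at 3.8, 3.8 and 2.34 FPKM with Al, a ratio of means of 3.98. Neither gene's groups overlapped.

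The log2 change with Al in slstop1 was -4.25 ± 0.276 for F3H (limma adjusted p = 3.01e-07), with a library at 0, and -6.17 with a pseudocount of 0.1 in place of 1. It was -2.91 ± 0.279 for FLS (limma adjusted p = 4.25e-06) and -1.04 ± 0.209 for F3'H (adjusted p = 0.00102). ANS rose by 1.22 ± 0.193 (limma adjusted p = 0.000189). With the smaller pseudocount F3'H changed by -1.65 and ANS by 1.85. Again 4 of 4 were called, 3 lower and 1 higher, the last again ANS, whose rise the filter favoured. Of all genes tested 66.8% were called, 45.5% lower and 21.3% higher. The median change of all tested genes was -0.46, moved to -0.062 by median-of-ratios scaling. Under that scaling the changes were -3.99 for F3H, -2.50 for FLS, -0.77 for F3'H and 1.51 for ANS.

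The genotypes were also compared directly at each dose. Without Al none of the 4 genes was called between slstop1 and WT, and their groups overlapped in every case. The log2 differences, slstop1 minus WT, were 0.24 ± 0.276 for F3H, 0.20 ± 0.279 for FLS, -0.020 ± 0.209 for F3'H and -0.18 ± 0.193 for ANS, each with a limma adjusted p of 1. None had an unadjusted limma p under 0.05; the lowest was 0.384. Only 0.176% of all genes tested were called here, 0.0692% higher and 0.107% lower in the mutant, so this count of 0 of 4 is near the background.

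With Al, F3H was lower in slstop1 than in WT. The mutant libraries read 0.41, 0 and 0.63 FPKM, and those of WT 1.11, 3.48 and 1.54 FPKM, without overlap. The log2 difference was -1.13 ± 0.276 (limma adjusted p = 0.0288), and -2.53 with a pseudocount of 0.1. FLS averaged 3.64 ± 0.341 FPKM in the mutant against 7.61 ± 1.14 FPKM for WT (SD, n = 3) and did not overlap either, but its difference of -0.89 ± 0.279 missed the threshold (limma adjusted p = 0.0747). F3'H (-0.36 ± 0.209, limma adjusted p = 0.327) and ANS (0.035 ± 0.193, adjusted p = 0.947) overlapped between the genotypes and were not called. So 1 of 4 genes was called, lower in slstop1, against 9.24% of all genes tested, 8.12% lower and 1.12% higher. The median difference of all tested genes was -0.16, and -0.0088 with median-of-ratios scaling.

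The F3H call depended on which libraries were kept: 9 of 12 fits without 1 library kept it, and none reversed the difference. It was lost without replicate 2 of WT with Al (-0.81, limma adjusted p = 0.0603), without replicate 1 of slstop1 with Al (-1.18, adjusted p = 0.0659) and without replicate 2 of that group, the library at 0 (-0.93, adjusted p = 0.123). It was also lost with no filter on low values (limma adjusted p = 0.0505), and with the replicate number as a block, as given below. Conversely FLS was called without replicate 2 of WT without Al (limma adjusted p = 0.0478) and without replicate 3 of that group (adjusted p = 0.007). It was called with a pseudocount of 0.1 as well (-1.04, limma adjusted p = 0.0457). Those libraries bear on the estimated spread and on the number of genes tested, not on the FLS difference itself.

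The interaction asks whether the change with Al was the same in both genotypes, and negative values mean a deeper fall, or a smaller rise, in the mutant. It was called for none of the 4 genes, where 1.02% of all genes tested were called, 0.975% lower and 0.0503% higher. It was -1.37 ± 0.390 for F3H (limma adjusted p = 0.134), -1.09 ± 0.394 for FLS (adjusted p = 0.258), -0.34 ± 0.296 for F3'H (adjusted p = 0.675) and 0.21 ± 0.274 for ANS (adjusted p = 0.813). Unadjusted, the limma p was 0.00488 for F3H and 0.0189 for FLS. The falls of F3H and FLS were therefore larger by value in the mutant, but the difference between genotypes did not pass over all genes. With a pseudocount of 0.1 the interaction of F3H was -2.78 and that of F3'H -0.63, neither of them called. The median interaction of all tested genes was -0.18.

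**Figure D3:**
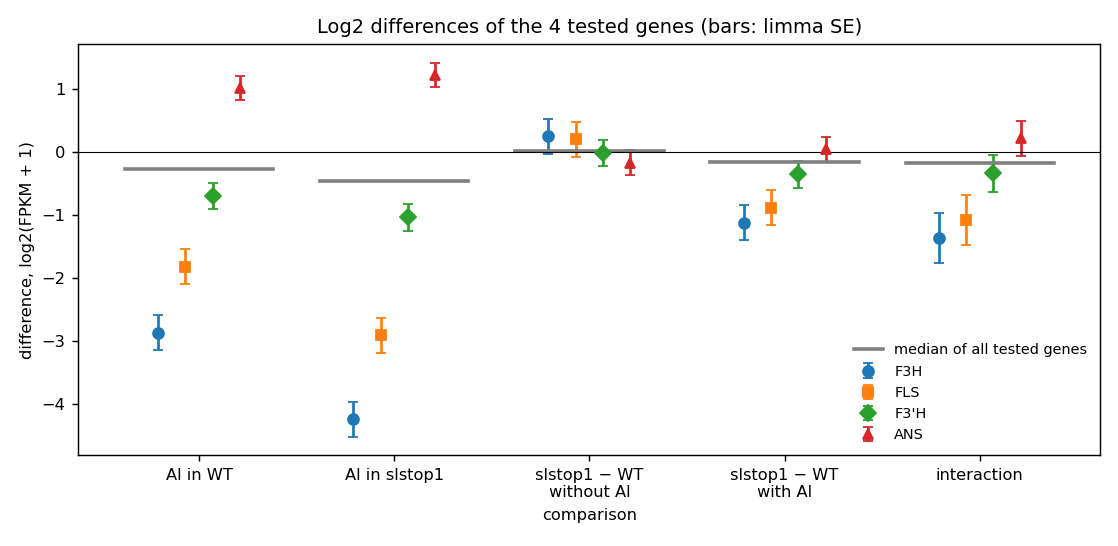
Log2 differences of F3H, FLS, F3'H and ANS in the 5 comparisons, on the log2(FPKM + 1) scale, with limma standard errors as bars and the median of all tested genes as a grey line. F3H and FLS lie far below the grey line for Al in both genotypes, at -2.87 and -1.83 in WT and -4.25 and -2.91 in slstop1, and ANS lies above it.

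FLS had the highest mean level of the 10 genes, so the likeness of other genes was measured against it, by Pearson's r of log2(FPKM + 1) over the 12 libraries. The closest gene models were Solyc10g055240.2 (r = 0.994) and Solyc04g054980.3 (r = 0.993), given as a description, since all libraries share the step between doses. Without Al, Solyc10g055240.2 averaged 24.2 ± 10.5 FPKM (SD, n = 3) for WT and 24.6 ± 4.48 for slstop1, which Al brought to 3.11 ± 0.791 and 0.773 ± 0.156 FPKM. Solyc04g054980.3 was far more abundant, with WT and slstop1 means of 936 ± 299 and 990 ± 132 FPKM before Al, and of 191 ± 25.1 and 107 ± 9.72 FPKM under it. Both showed the order seen in FLS, with the lowest level in slstop1 with Al, which their choice by r over these same libraries favours.

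Neighbouring steps of phenylpropanoid metabolism were followed through 5 lists of 31 identifiers recorded from published tomato nomenclature, of which 30 were in the table. The general phenylpropanoid entry (phenylalanine ammonia-lyase, cinnamate hydroxylase and coumarate-CoA ligase models, which supply flavonoid and lignin synthesis alike) had models called higher with Al and none called lower. Of its 10 models with a deposited value, 9 were tested, and 5 rose with Al in WT and 6 in slstop1. Over all genes tested 60.9% were called in WT and 66.8% in slstop1, with 21.9% and 21.3% higher. The share of models called in either direction was thus near that of all genes, and the share called higher was larger. The list was recorded with earlier results of these data known. The models not called included Solyc09g007920.3, with changes of -0.84 in WT and -0.90 in slstop1. The median log2 change of the 9 tested models was 1.16 in WT and 0.96 in slstop1, against -0.27 and -0.46 for all tested genes. The largest rises in WT were those of Solyc09g007910.3, from 51.2 ± 20.8 to 237 ± 42.4 FPKM (log2 2.26 ± 0.252, limma adjusted p = 2.05e-05), and of Solyc03g042560.2, from 16.0 ± 7.38 to 69.0 ± 35.3 FPKM (2.02 ± 0.419, adjusted p = 0.00154). In slstop1 the call of Solyc03g042560.2 was lost without replicate 3 of the group without Al (1.17, limma adjusted p = 0.0561). Solyc09g007910.3 lies in a run of 3 listed models from Solyc09g007900.3 to Solyc09g007920.3, and how reads were divided among such neighbours is not given in the sources used here.

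Few models of the anthocyanin lists were tested. Of 6 models for decoration and transport 3 passed the filter, each only through libraries of 1 dose. The filter thus favoured a difference, and these models are given by their levels alone. Solyc02g081340.3 reached 1 FPKM in 4 libraries, all with Al, and its highest value was 2.04 FPKM. Solyc10g083440.1 reached 1 FPKM in 5 libraries and Solyc09g059170.2 in 3, all without Al, with highest values of 1.76 and 1.8 FPKM. Of 9 regulator models 3 were tested. Solyc08g081140.3 and Solyc03g097340.1 were called in both genotypes, where 60.9% and 66.8% of all genes tested were called. Solyc08g081140.3 fell from 11.0 ± 1.56 to 3.33 ± 0.793 FPKM in WT (log2 -1.48 ± 0.184, limma adjusted p = 4.48e-05). Solyc10g086250.2 passed the filter only through the 6 libraries without Al, which favoured a fall. It read 1.88 ± 0.678 FPKM in WT before Al and 0, 0.3 and 0 FPKM with it. The regulator that rose was Solyc03g097340.1, from 33.8 ± 7.97 to 57.9 ± 12.2 FPKM in WT, and its call in slstop1 was lost without replicate 3 of the group without Al (log2 0.58, limma adjusted p = 0.0517). The single additional chalcone isomerase-like model, Solyc05g052240.3, reached at most 0.55 FPKM and was not tested.

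The list for the chlorogenate and lignin branch, which draws on the same coumaroyl-CoA as chalcone synthase, had 4 models, all tested. With Al, Solyc02g093270.3 rose in both genotypes, from 46.7 ± 8.26 to 164 ± 42.4 FPKM in WT (log2 1.77 ± 0.231, limma adjusted p = 6.23e-05), and was the only called one in WT. In slstop1 Solyc07g005760.3 fell (log2 -0.80 ± 0.116, limma adjusted p = 9.7e-05), a call that median-of-ratios scaling ended (-0.33, adjusted p = 0.0506). Apart from Solyc08g081140.3, Solyc10g086250.2, Solyc09g007910.3 and Solyc03g042560.2, which had the 2 largest called rises and the 2 largest called falls in WT, the models named from these lists were picked after their values were seen. The median change of the chlorogenate and lignin list was 0.10 in WT and -0.050 in slstop1.

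**Figure D4:**
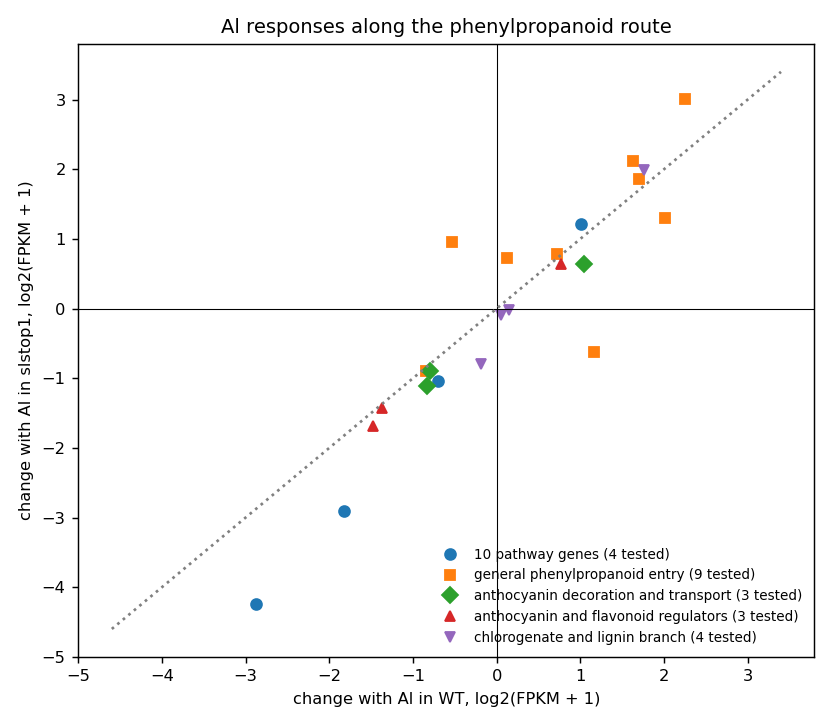
Change with Al in WT (horizontal) against change with Al in slstop1 (vertical), both as log2(FPKM + 1) differences, for the tested genes of the flavonoid set and of 4 lists, with a dotted line of equal change. F3H and FLS lie at the lower left, below the dotted line, and most general phenylpropanoid models lie at the upper right.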

How the data were processed

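RNA from roots was sequenced in 12 libraries, 4 groups of 3, grouped by the sample titles. The authors deposited a table of 35768 gene models; its unit is not named and is taken as FPKM because values have decimals and column sums differ. The authors made these FPKM values with some of Cufflinks, HISAT2, StringTie and TopHat2, which are named in the submitters' processing notes without versions or roles. The genome build was not given in the sources used here. Because FPKM is relative to the library total, more of an abundant transcript means lower values elsewhere. Relative depth came from ratios of values between 0.2 and 2 FPKM; 60 of 66 library pairs fitted 1 set of depths to within 0.03 (log2). Values were transformed as log2(FPKM + 1). The 15903 genes that reached 1 FPKM in 3 or more libraries were fitted by group means with limma 3.58.1 in R 4.3.3 (trend, 8 residual degrees of freedom), two-sided, with Benjamini-Hochberg adjustment over all genes and a threshold of 0.05. The procedure was tested on simulated data. Python 3.11.15, numpy 2.4.6, pandas 2.3.3 and matplotlib 3.10.9 were used for the rest. RefSeq identifiers matched 0 of the table's.

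The members, lists and markers were chosen with earlier results of these data known. All 10 members are named, with the 2 gene models most like the most abundant member; of the lists, the 2 largest called rises and falls with Al in WT, and others as marked. Alternatives were a pseudocount of 0.1, no filter, median-of-ratios scaling, the replicate number as a block, and leaving out each library; their use on the lists was chosen after seeing the data. Whether the replicates came from separate cultures is known only from the labels' word biological.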

Additional observations from a re-analysis of the deposited data

How the results depend on the processing

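Over 16 alternatives the changes with Al of F3H, FLS and ANS kept direction and call in both genotypes, and so did F3'H in slstop1; F3'H in WT lost its call in 1. For ANS the filter favoured this in every alternative except the fit with no filter. Of 320 recomputed log2 values for the 4 genes, 305 kept direction and side of the threshold. Many of these could not change direction. Leaving out a library outside the 2 groups compared, removing the filter or adding the block leaves the log2 difference as it was, so that only the call could move. The number of genes called with Al between genotypes, 1, became 2 with a pseudocount of 0.1, 0 with no filter (F3H adjusted p = 0.0505), 0 with the replicate block (0.0545), and 0 to 2 on leaving out any 1 library. The cause was not tested. Same-numbered libraries did not deviate together (r from -0.24 to 0.09 over 18 pairs, none above 0.1). Such correlations cannot tell whether these libraries shared a culture, harvest or run. The block changed no other call of the 4 genes. The following uncalled differences changed sign when a library was left out: without Al, F3'H ran from -0.15 to 0.13 and FLS from -0.17 to 0.46, and with Al, ANS ran from -0.052 to 0.21. Of 408 recomputed values of called list genes, 401 kept their call and 0 reversed. A further 8 could not be had, because Solyc09g059170.2 fell under the filter in 4 alternatives. The 408 include values of Solyc10g083440.1, Solyc09g059170.2, Solyc02g081340.3 and Solyc10g086250.2. These passed the filter only through libraries of 1 dose, which favoured a difference, so the calls they kept carry no weight.

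Over all genes, the count without Al (28) was 8 with the replicate block and 7 to 48 without single libraries. The count between genotypes with Al (1469) was 580 to 2401 without single libraries. The interaction count (163) was 100 with median-of-ratios scaling, 69 with the replicate block and 53 to 357 without single libraries. That scaling changed the split of calls from 3478 higher and 6210 lower to 4530 and 5061 for Al in WT, from 3392 and 7235 to 5034 and 5565 in slstop1, from 178 and 1291 to 486 and 812 between genotypes with Al, and from 8 and 155 to 16 and 84 for the interaction. The 6 genes near 0 are limited by depth, which is unknown in reads.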

Other observations

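The most variable of the general phenylpropanoid models was Solyc09g007900.3, which read 27.7, 584 and 172 FPKM in the WT libraries without Al and 287 to 386 FPKM in those with Al. Its change with Al in WT was 1.16 ± 0.783 on the log2 scale (limma adjusted p = 0.222). The neighbouring Solyc09g007910.3 read 71.8, 51.5 and 30.3 FPKM in the same WT libraries without Al.

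Summed over the 10 flavonoid genes, the level was 39.0 to 69.1 FPKM in WT without Al and 12.5 to 15.4 FPKM with Al. In slstop1 it was 52.5 to 71.5 FPKM without Al and 7.16 to 9.01 FPKM with Al. The general phenylpropanoid models summed to 1423 to 1615 FPKM in WT with Al and 1828 to 1854 FPKM in slstop1 with Al, against 596 to 1774 and 1321 to 1540 FPKM without Al.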
